A study of Gallus gallus with 12 samples.

Results

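The livers of normal chickens fed a high-fat diet (HFD; these birds are called HN) were compared with the livers of normal chickens fed the normal diet (NN). Members were chosen by the labels, as all liver libraries of both diets, which gave 6 of the 12 libraries, 3 HN livers and 3 NN livers with 1 library per bird. All birds were female Xinghua chickens, labelled as 8 weeks old (by the study's methods their age when the diets began), of the type without the dwarf mutation, and the stated difference between the groups was the diet. By the study's methods the HFD held more fat and slightly less protein and carbohydrate than the normal diet. Differences with fat and with protein therefore cannot be told apart. The study describes birds of similar body weight that were kept on their diet for a short period before slaughter, and it mentions no pooling of birds. Abdominal fat libraries of the same groups were used only for the fit of all 12 libraries and for a comparison of tissues. For each library, the abundance of 18332 genes was available as FPKM, the number of sequenced fragments scaled to transcript length and to the mapped fragments of the library.

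In birds the liver, and not the adipose tissue, is the main site of fatty acid synthesis. The liver exports the product as very low density lipoprotein, stores part of it in lipid droplets and oxidizes fatty acids in mitochondria and peroxisomes. It also makes most plasma proteins, breaks down amino acids, forms glucose, and disposes of nitrogen by building purines that are excreted as uric acid. Enzymes of these pathways are set largely by transcription factors that respond to insulin, sterols, fatty acids and thyroid hormone, such as SREBF1, MLXIPL and PPARA.

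Summed FPKM was 600829 to 642102 in the HN livers and 571235 to 582894 in the NN livers, so the sums of the groups did not overlap. Sums of 15 hepatocyte markers were 98322 to 103539 FPKM in HN, 103834 to 114945 FPKM in NN and 3586 to 10654 FPKM in the fat libraries, which fits the liver label. Adipocyte marker sums were 146 to 194 FPKM in HN and 149 to 208 FPKM in NN livers, against 13742 to 18878 FPKM in fat. Muscle markers summed to at most 2.25 FPKM in any liver, with 3 of 9 at 0 in all livers, and pancreas and gut markers to at most 4.72 FPKM, with 4 of 12 at 0. HN replicate 2 stood apart. Its median correlation with the other livers was 0.939, against 0.952 to 0.968 for the other 5 livers, and counts are therefore also given without it. Read depth is not given by the files, so a gene with few FPKM may rest on few reads.

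A total of 11278 genes averaged 1 FPKM or more across the 6 livers and were tested with limma on log2(FPKM + 1). After Benjamini-Hochberg adjustment over all tested genes, 0 genes (0.0%) had an adjusted p-value under 0.05, and the smallest adjusted p-value was 0.219. At an unadjusted p-value under 0.05, 386 genes (3.42%) were higher and 963 genes (8.54%) were lower in HN livers, and these are called nominally higher and nominally lower here. All 3 HN livers lay above all 3 NN livers for 690 genes (6.12%) and below them for 1688 genes (15%). An exact permutation test of 3 birds against 3 cannot give a two-sided p-value below 0.1, which each gene whose groups did not overlap reached. Fold changes are given below as differences of log2(FPKM + 1), HN minus NN, with their standard errors (SE). The added 1 shrinks the differences of genes with few FPKM.

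The excess of lower genes depended on expression level and on scaling. Of 4151 genes that averaged 1 to 5 FPKM, 65 were nominally higher and 463 nominally lower, while of 770 genes that averaged 100 FPKM or more, 69 were nominally higher and 33 nominally lower. In all, 28.6% of the nominal calls were higher in HN. This share was 58.2% with median-ratio scaling (800 higher, 575 lower), 41.2% with quantile normalization (468 higher, 667 lower) and 14.1% when FPKM was rescaled to the same sum in each library (262 higher, 1600 lower). Across all tested genes the median was -0.06 on the log2 scale, and it was 0.03, -0.03 and -0.15 under these 3 scalings. Leaving out HN replicate 1 gave 650 higher genes, leaving out NN replicate 1 gave 216 higher and 347 lower, and leaving out NN replicate 2 gave 249 higher and 485 lower.

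**Figure D1:**
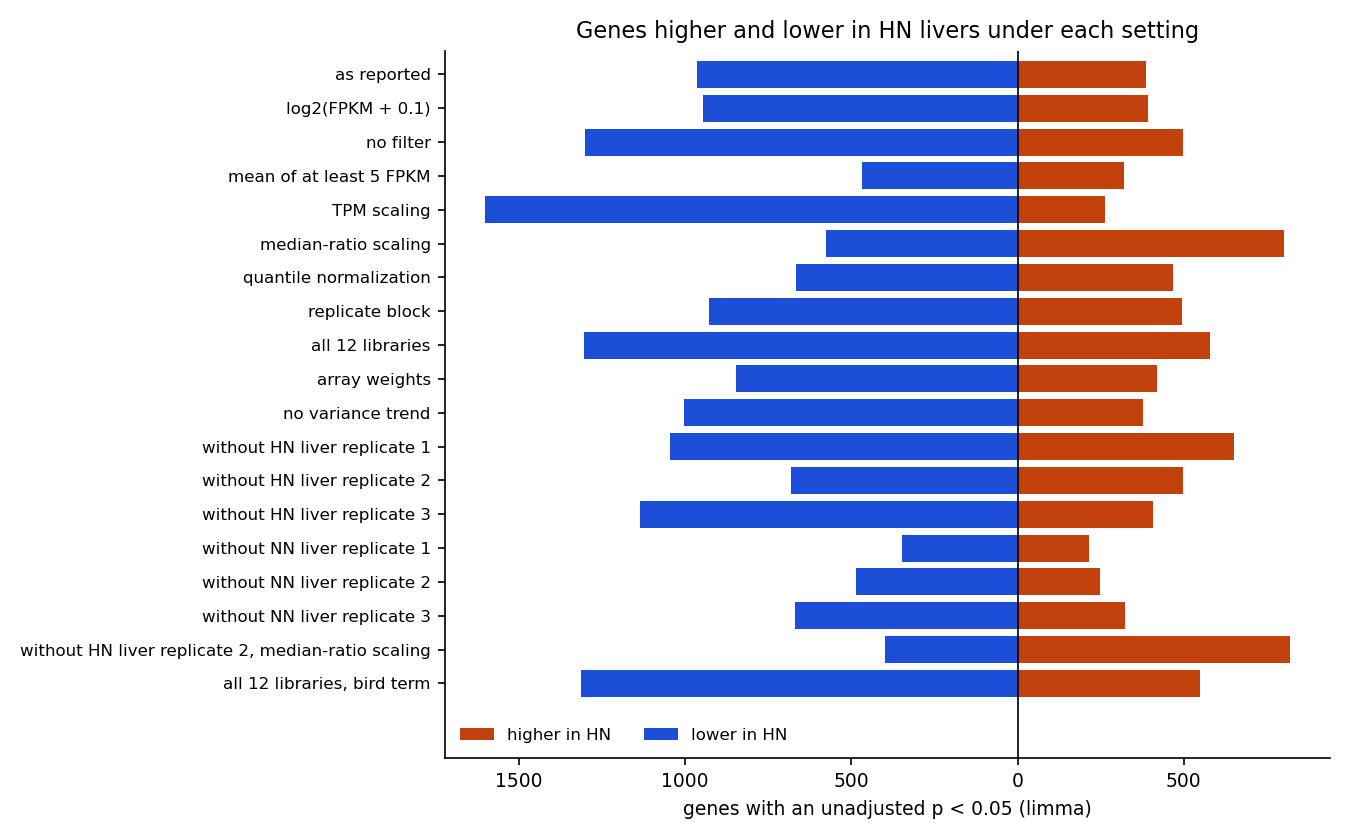
Number of genes with an unadjusted limma p-value under 0.05 that were higher (right) or lower (left) in HN than in NN livers, as reported and under each alternative (the bird term fits liver and fat of the same diet and number as 1 bird). Lower genes outnumber higher genes as reported (963 against 386), and the order turns with median-ratio scaling (575 against 800).

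Genes were grouped into 23 lists by function. The list with the highest median log2 fold change was fatty acid synthesis and its regulators (0.86 over 16 genes), followed by endoplasmic reticulum (ER) chaperones and the amino acid response (0.32 over 34 genes), proteasome subunits (0.30 over 32 genes) and fatty acid desaturases and elongases (0.30 over 10 genes). The lowest medians were those of circadian clock genes (-0.23 over 20 genes), amino acid breakdown and one-carbon enzymes (-0.20 over 64 genes), IGF, JAK-STAT and insulin signalling (-0.20 over 50 genes) and fatty acid oxidation (-0.17 over 31 genes). This order depended on scaling. With quantile normalization the median was -0.31 for fatty acid oxidation and -0.12 for clock genes. Cytosolic ribosomal proteins lay near the median of all genes, at 0.02 over 74 genes. A list is described here by its counts and its median, and no list was tested as a set. The shares of all tested genes set beside the counts below are not matched to the expression level of a list. Of 770 genes averaging 100 FPKM or more, 69 were nominally higher and 33 nominally lower. For lists of abundant genes the share of all tested genes therefore overstates the contrast in higher calls.

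**Figure D2:**
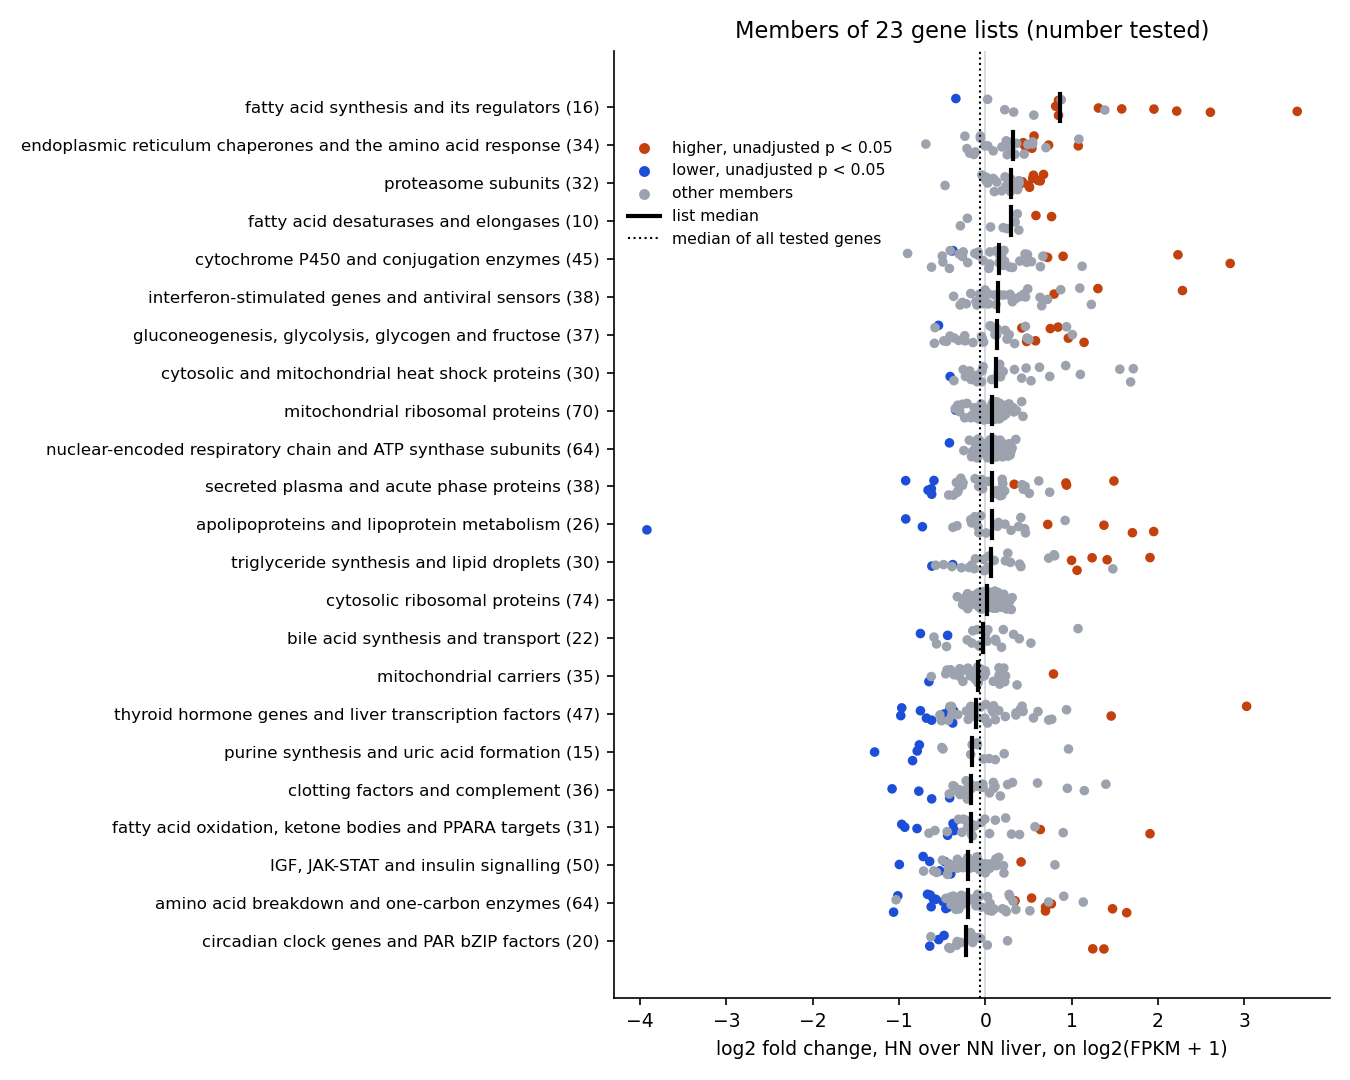
Log2 fold change (HN against NN livers, from log2(FPKM + 1)) of each tested member of 23 gene lists, with the number tested in brackets. Points in colour had an unadjusted limma p-value under 0.05, the thick lines are list medians and the dotted line is the median of all tested genes (-0.06). Fatty acid synthesis has the highest median (0.86) and clock genes the lowest (-0.23).

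Genes of fatty acid synthesis were mostly higher in HN livers. Of 16 members, 9 were nominally higher, against 3.42% of all tested genes, 1 was nominally lower and 15 had a positive log2 fold change. THRSP and THRSPB encode Spot 14 type proteins that accompany lipogenesis in the chicken liver. THRSPB was 962, 466 and 398 FPKM in the 3 HN livers and 103, 113 and 65.9 FPKM in the NN livers, a log2 fold change of 2.61 ± 0.37 (SE; adjusted p = 0.278, limma). Every HN liver had more than 3 times the highest NN value, in a gene chosen for its separation. THRSP was 2684, 854 and 1551 FPKM in HN and 646, 511 and 400.4 FPKM in NN, a log2 fold change of 1.58 ± 0.42 (adjusted p = 0.392). These genes are paralogs, and how reads shared between them were counted is not given in the sources used here.

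Among the enzymes, SCD, the stearoyl-CoA desaturase that introduces the first double bond, was 1053, 193 and 226 FPKM in HN and 64.1, 8.37 and 40.2 FPKM in NN (log2 fold change 3.62 ± 0.89, adjusted p = 0.392). The groups did not overlap, but HN replicate 1 was far above the other HN livers and the NN livers spread widely. FASN, the fatty acid synthase, was 165, 83.3 and 25.2 FPKM in HN and 14.4, 12.8 and 16.1 FPKM in NN (log2 fold change 2.22 ± 0.61). ACACA, the acetyl-CoA carboxylase that makes malonyl-CoA, was 164, 59.5 and 66.1 FPKM in HN and 43.5, 28.3 and 32.6 FPKM in NN (log2 fold change 1.31 ± 0.40). For both enzymes each HN liver was above each NN liver, and HN replicate 1 was the highest bird. ME1, the malic enzyme that supplies NADPH, was 181, 45.4 and 30.4 FPKM in HN and 24.7, 15.8 and 9.53 FPKM in NN (log2 fold change 1.95 ± 0.67). ACLY, which releases cytosolic acetyl-CoA from citrate, was 215, 212 and 97.4 FPKM in HN and 77.5, 106 and 91.5 FPKM in NN, so that HN replicate 3 lay within the NN range. The smallest adjusted p-value of these 5 enzymes was 0.392.

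The regulators divided. SREBF1, the sterol regulatory factor of lipogenic genes, was 128, 71.8 and 125 FPKM in HN and 45.6, 52.7 and 86.01 FPKM in NN, with 1 HN liver inside the NN range (log2 fold change 0.82 ± 0.32). INSIG1, the ER retention protein of this factor, was 111, 199.8 and 106 FPKM in HN and 56.2, 80.3 and 87.4 FPKM in NN, without overlap (log2 fold change 0.85 ± 0.29). MLXIPL, the carbohydrate response factor ChREBP, did not differ beyond the spread between birds, with 69.1, 37.2 and 62.6 FPKM in HN and 55.3, 62.04 and 44.4 FPKM in NN, and its sign turned under other settings. Its partner MLX was the nominally lower member (-0.34 ± 0.13). ELOVL6, the elongase of palmitate, was 473, 241 and 201 FPKM in HN and 212, 173 and 313 FPKM in NN, with overlapping groups, and had a log2 fold change of -0.04 without HN replicate 1. HN replicate 1 had the highest value of 13 of the 16 members. Without it, 7 members were nominally higher and 0 lower, and without HN replicate 2, 10 were higher and 0 lower. With quantile normalization 6 were nominally higher and 1 lower.

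In the list of desaturases and elongases, 2 of 10 tested members were nominally higher, against 3.42% of all tested genes, and 0 lower. ELOVL1, an elongase of long-chain fatty acids, was 239, 287 and 265 FPKM in HN and 146, 114 and 219.8 FPKM in NN (log2 fold change 0.77 ± 0.25, adjusted p = 0.398). FADS2, the delta-6 desaturase of polyunsaturated fatty acids, was 513, 358 and 400.4 FPKM in HN and 208, 292 and 355 FPKM in NN (log2 fold change 0.59 ± 0.24). Neither gene showed an overlap, although NN replicate 3 was close to the HN range for both. ELOVL2 (0.39 ± 0.18) and ELOVL5 (0.37 ± 0.22), which extend polyunsaturated fatty acids, did not pass the unadjusted threshold. The count was 0 without NN replicate 2, 1 without HN replicate 1 or NN replicate 1, and 3 without HN replicate 2.

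In the fatty acid oxidation list, 7 of 31 members (22.6%) were nominally lower in HN livers, against 8.54% of all tested genes. A further 2 members (6.45%) were nominally higher, against 3.42% of all tested genes, and 22 passed in neither direction. CPT1A, the carnitine palmitoyltransferase that admits long-chain fatty acids to mitochondria, was 150.1, 119.9 and 142 FPKM in HN and 249, 228 and 235 FPKM in NN. CPT1A was among the genes chosen for their separation. Its groups were well apart, with a log2 fold change of -0.79 ± 0.14 (adjusted p = 0.349, limma; 0.0329 in the fit of all 12 libraries). PPARA, the nuclear receptor of fatty acids that drives oxidation genes, was 28.8, 9.3 and 23.99 FPKM in HN and 37.9, 41.3 and 33.9 FPKM in NN (log2 fold change -0.97 ± 0.39). No value overlapped, and HN replicate 2 was the lowest bird.

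Peroxisomal enzymes were among the 7 lower members. HSD17B4, the multifunctional enzyme of peroxisomal beta-oxidation, was 135, 129 and 117 FPKM in HN and 174, 149 and 197 FPKM in NN (log2 fold change -0.44 ± 0.16), and ACAA1, the peroxisomal thiolase, had a log2 fold change of -0.36 ± 0.15. DECR1, which handles unsaturated fatty acids in mitochondria, had one of -0.37 ± 0.13. The HN and NN livers did not overlap for these 3 genes. ACAT1, the mitochondrial acetoacetyl-CoA thiolase, was not in the list but was among the 15 lower genes named for their p-values, as described below. It was 353, 359 and 416 FPKM in HN and 584, 654 and 623 FPKM in NN (log2 fold change -0.72 ± 0.14). The higher members were ECI1 (0.64 ± 0.21), an isomerase of unsaturated fatty acids, and PLIN2, a lipid droplet coat protein. The order of the counts turned with median-ratio scaling, with 3 members higher and 2 lower, and with 4 higher and 1 lower when HN replicate 2 was also left out. The lower count was 10 after rescaling to equal sums, 11 with quantile normalization, 4 without HN replicate 2 and 2 without NN replicate 1, 2 or 3.

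Among genes of triglyceride synthesis and lipid droplets, 5 of 30 tested members (16.7%) were nominally higher and 2 (6.67%) nominally lower. The shares of all tested genes were 3.42% and 8.54%. FABP1, the fatty acid-binding protein of liver, was 3376, 2554 and 3329.5 FPKM in HN and 1592, 1536 and 1284 FPKM in NN. FABP1 was chosen for its separation. The lowest HN liver was far above the highest NN liver, with a log2 fold change of 1.06 ± 0.18 (adjusted p = 0.313, limma). CIDEC, which enlarges lipid droplets, was 166, 251 and 177 FPKM in HN and 71.2, 123 and 104 FPKM in NN (log2 fold change 1.000 ± 0.26). PLIN2, the main droplet coat protein of hepatocytes, was 105, 388 and 57.6 FPKM in HN and 33.9, 54.2 and 22.7 FPKM in NN (log2 fold change 1.91 ± 0.69). HN replicate 2 was by far the highest bird for PLIN2, and HN replicate 3 was barely above NN replicate 2. PLIN4, another coat protein, was 40.8, 135 and 113 FPKM in HN and 22.3, 34.2 and 40.95 FPKM in NN, with HN replicate 1 just inside the NN range (log2 fold change 1.41 ± 0.47). The gene that the files call ABHD5 and RefSeq calls ABHD4 was also higher (1.24 ± 0.41). The lower members were LPL (-0.62 ± 0.24), the lipoprotein lipase, and AGPAT9 (-0.38 ± 0.16), named GPAT3 in RefSeq, an acyltransferase of the first step of triglyceride synthesis. Without NN replicate 1, 3 members were nominally higher and 0 lower, and without HN replicate 2, 4 and 0. The lower count was 1 without NN replicate 2 or NN replicate 3, 3 without HN replicate 3, 4 with quantile normalization and 0 with median-ratio scaling.

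**Figure D3:**
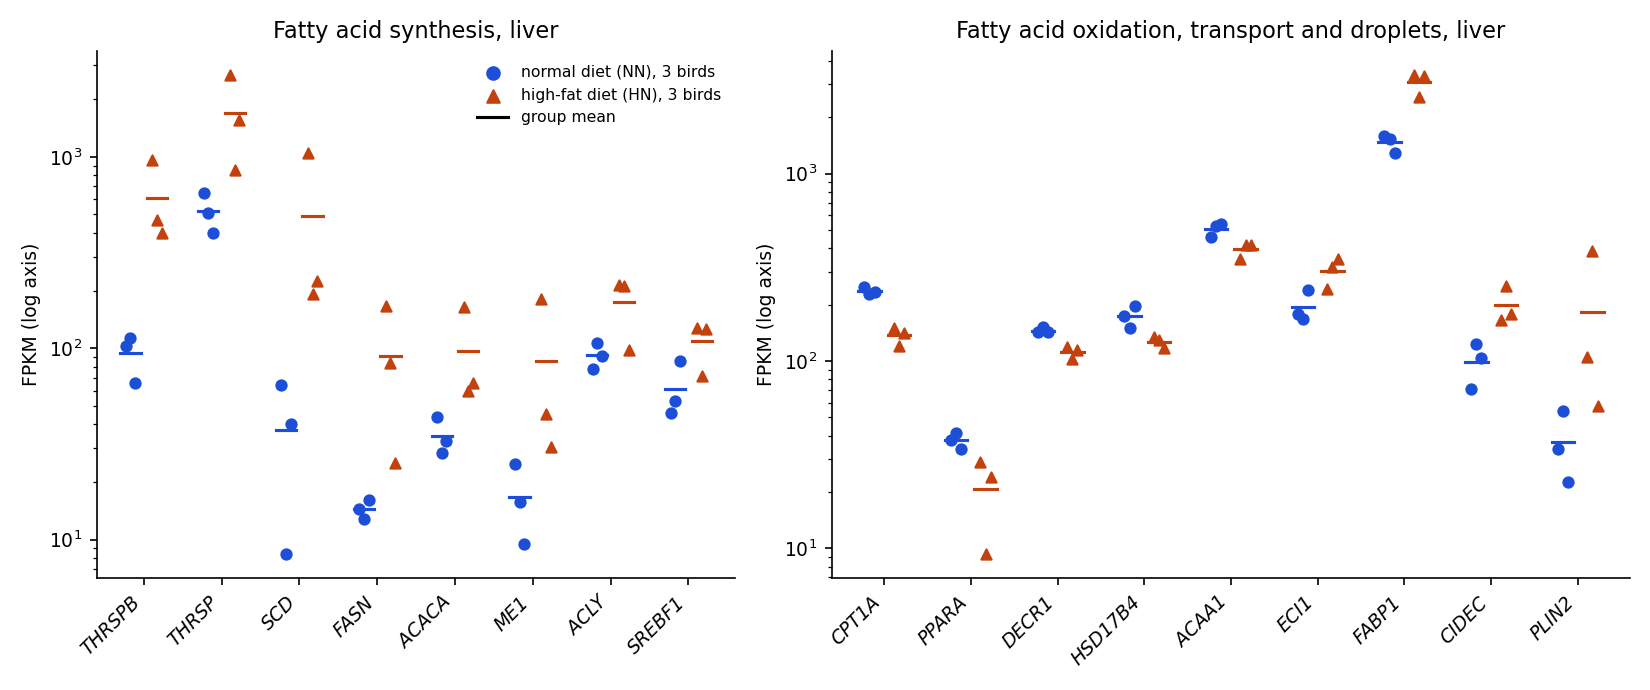
FPKM of each liver (log axis) for genes of fatty acid synthesis (left) and of fatty acid oxidation, transport and lipid droplets (right), with 3 NN birds as circles, 3 HN birds as triangles in the order of their replicate number, and group means as lines. FABP1 lies at 2554 to 3376 FPKM in HN and 1284 to 1592 FPKM in NN, and CPT1A at 120 to 150 FPKM in HN and 228 to 249 FPKM in NN.

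Apolipoprotein and lipoprotein genes had 4 of 26 tested members (15.4%) nominally higher and 3 (11.5%) nominally lower. The shares of all tested genes were 3.42% and 8.54%, so the lower share was near that of all genes. APOF, an apolipoprotein that modulates cholesteryl ester transfer in mammals, was 236, 217 and 368 FPKM in HN and 46.5, 63.7 and 106 FPKM in NN (log2 fold change 1.95 ± 0.34). The groups were separated by a wide gap, in a gene chosen for its separation. APOC3, an inhibitor of triglyceride clearance, was 11221, 7547 and 11767 FPKM in HN and 7514, 4993 and 5893 FPKM in NN, a narrow separation (log2 fold change 0.72 ± 0.24).

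The lower members included APOB, the structural protein of very low density lipoprotein, which was 136, 80.7 and 76.3 FPKM in HN and 169.6, 146 and 156 FPKM in NN (log2 fold change -0.73 ± 0.24). CETP, the cholesteryl ester transfer protein, was 38.9, 18.5 and 36.4 FPKM in HN and 62.9, 56.9 and 52.3 FPKM in NN (log2 fold change -0.92 ± 0.29). Neither gene overlapped between the groups. APOV1, the estrogen-dependent apolipoprotein of laying hens, was 5.69, 0.09 and 1.01 FPKM in HN and 325, 7.37 and 17.7 FPKM in NN (log2 fold change -3.92 ± 1.37). Its level in NN replicate 1 was far above every other liver, and the birds of each diet spread over more than 10-fold. APOA1, the main protein of high density lipoprotein, was 33052, 41036 and 48616 FPKM in HN and 27734, 25855 and 34894 FPKM in NN and did not pass the unadjusted threshold (0.47 ± 0.20). Without HN replicate 2 the list had 5 higher and 1 lower members, and without HN replicate 3 it had 3 higher and 1 lower.

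Bile acid genes did not stand out, with 0 of 22 members nominally higher and 2 (9.09%) nominally lower. The shares of all tested genes were 3.42% and 8.54%. NR1H4, the bile acid receptor FXR, was 22.4, 18.1 and 20.4 FPKM in HN and 31.98, 24.02 and 54.3 FPKM in NN, without overlap (log2 fold change -0.75 ± 0.29, adjusted p = 0.406). NR0B2, the repressor that FXR induces in mammals, had a log2 fold change of -0.59 ± 0.28 with overlapping groups. The other lower member was HSD17B4, given above with the peroxisomal enzymes. CYP7A1, the rate-limiting enzyme of bile acid synthesis, was 5.69, 1.93 and 12.01 FPKM in HN and 2.42, 5.88 and 0.16 FPKM in NN. Its values overlapped and varied widely among birds of both diets. With median-ratio scaling, with array weights or without NN replicate 1, 0 members were nominally lower, and without HN replicate 3 the counts were 1 higher and 0 lower. Without HN replicate 2 there were 1 higher and 2 lower, and without NN replicate 3 there was 1 lower.

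Of 37 tested genes of fructose, glycogen and glucose handling, 7 were nominally higher in HN livers (3.42% of all tested genes were) and 1 was lower (8.54% of all tested genes were). SLC2A2, the glucose and fructose carrier of hepatocytes (GLUT2), was 107, 82.6 and 82.6 FPKM in HN and 46.4, 50.9 and 40.4 FPKM in NN. SLC2A2 was also chosen for its separation. Its groups lay apart, with a log2 fold change of 0.96 ± 0.17 (adjusted p = 0.313, limma; 0.0162 in the fit of all 12 libraries). In the fats SLC2A2 was at only 0.07 to 0.13 FPKM, with almost no spread, which lowers the variance used in that fit. KHK, ketohexokinase, which phosphorylates fructose, was 453, 289 and 527 FPKM in HN and 274, 219 and 239 FPKM in NN (log2 fold change 0.75 ± 0.24). DAK, named TKFC in RefSeq, the triokinase of the same route, was 221, 96.5 and 217 FPKM in HN and 80.3, 75.3 and 69.3 FPKM in NN (log2 fold change 1.14 ± 0.33). In both, HN replicate 2 was the lowest HN liver but remained above the NN range.

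Glycogen phosphorylase PYGL (0.58 ± 0.21) and phosphoglucomutase PGM1 (0.84 ± 0.29), which act in glycogen breakdown, were nominally higher. So were PGAM1 (0.48 ± 0.14), the phosphoglycerate mutase of glycolysis, and PFKFB4 (0.42 ± 0.16), named PFKFB1 in RefSeq, which sets fructose 2,6-bisphosphate. None of these 4 overlapped between groups. PCK1, the cytosolic PEP carboxykinase of gluconeogenesis, was 327, 392 and 220.1 FPKM in HN and 82.99, 88 and 537 FPKM in NN, so that 1 NN liver was the highest of all. The glucose 6-phosphatase gene, LOC100857298 in the files and G6PC in RefSeq, was 1342, 673 and 1759 FPKM in HN and 1373, 1021 and 1001 FPKM in NN, with overlapping groups. After rescaling to equal sums, 5 members were nominally higher and 5 lower, and with quantile normalization 5 and 4. Without HN replicate 2 the counts were 8 and 0, and without NN replicate 1 they were 5 and 0. Leaving out HN replicate 1 gave 5 higher and 6 lower, NN replicate 2 gave 2 higher and 1 lower, and NN replicate 3 gave 4 higher and 2 lower.

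Enzymes of amino acid breakdown and one-carbon metabolism differed in both directions. Of 64 tested members, 13 (20.3%) were nominally lower, against 8.54% of all tested genes, and 7 (10.9%) were nominally higher, against 3.42%, so both shares were above those of all genes. The highest fold change was in BHMT, betaine-homocysteine methyltransferase, which RefSeq names BHMT2 at this gene ID. It was 617, 572 and 353 FPKM in HN and 139, 183 and 160.3 FPKM in NN. Lack of overlap was a condition for choosing BHMT. The lowest HN liver had nearly 2 times the highest NN value, and the log2 fold change was 1.64 ± 0.24 (adjusted p = 0.278, limma; 0.0105 in the fit of all 12 libraries). CBS, cystathionine beta-synthase, which takes homocysteine the other way, to cysteine, was 24.8, 21.9 and 20.7 FPKM in HN and 32.7, 40.9 and 35.3 FPKM in NN (log2 fold change -0.67 ± 0.15). CTH, the next enzyme, had a log2 fold change of -0.46 ± 0.19, with HN replicate 1 inside the NN range. MTHFD1, the folate enzyme of one-carbon transfer, was 116, 112 and 107 FPKM in HN and 146, 158 and 168 FPKM in NN (log2 fold change -0.49 ± 0.13).

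Subunits of the branched-chain ketoacid dehydrogenase, the committed step of leucine, isoleucine and valine breakdown, differed in direction. BCKDHA was 139.5, 141 and 176 FPKM in HN and 85.2, 90.6 and 104 FPKM in NN (log2 fold change 0.70 ± 0.16). BCKDHB, its partner in the same E1 component, was 11.8, 9.37 and 10.8 FPKM in HN and 15.5, 18.2 and 17.1 FPKM in NN (log2 fold change -0.63 ± 0.14). DBT, the E2 component, was 17.7, 14.6 and 15.2 FPKM in HN and 25.5, 27.4 and 19.7 FPKM in NN (log2 fold change -0.57 ± 0.17). The groups did not overlap for any of the 3 subunits, and these directions were kept with median-ratio scaling (0.80, -0.53 and -0.47), quantile normalization (0.55, -0.61 and -0.60) and rescaling to equal sums (0.61, -0.73 and -0.67).

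The other nominally lower members were AASS (-1.06 ± 0.31) of lysine breakdown, ETNPPL (-1.01 ± 0.26), a phosphoethanolamine lyase, AMDHD1 (-0.64 ± 0.24) of histidine breakdown, TDO2 (-0.60 ± 0.24), the first enzyme of tryptophan breakdown, and HIBADH (-0.43 ± 0.17), QDPR (-0.42 ± 0.15), AMT (-0.38 ± 0.16) and ALDH6A1 (-0.38 ± 0.13). The other nominally higher members were FTCD (1.47 ± 0.57) of histidine breakdown, AGXT (0.77 ± 0.21), which transaminates glyoxylate, ALDH4A1 (0.70 ± 0.24) of proline breakdown, SDSL (0.54 ± 0.15) and PCCB (0.34 ± 0.14). FTCD was 68.95, 268 and 66.2 FPKM in HN and 50.3, 42.9 and 25.1 FPKM in NN, with HN replicate 2 far above the other HN livers. TAT, the tyrosine aminotransferase, did not pass the unadjusted threshold (-0.40 ± 0.21, adjusted p = 0.478). With median-ratio scaling, 10 members were nominally higher and 6 lower. Leaving out NN replicate 2 gave 4 higher and 5 lower, and NN replicate 3 gave 6 higher and 7 lower.

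Purine synthesis, through which birds build the uric acid they excrete, had 4 of 15 tested members (26.7%) nominally lower and 0 higher. The shares of all tested genes were 8.54% lower and 3.42% higher. ADSL, adenylosuccinate lyase, was 306, 399.8 and 259 FPKM in HN and 592, 989 and 782 FPKM in NN. ADSL and ATIC were chosen for their separation. For ADSL every HN liver was well below every NN liver, and the log2 fold change was -1.28 ± 0.25 (adjusted p = 0.382, limma; 0.0351 in the fit of all 12 libraries). ATIC, which carries out the last steps to inosine monophosphate, was 1849, 1643 and 2053 FPKM in HN and 2916, 3732 and 3308 FPKM in NN (log2 fold change -0.84 ± 0.16). GART, the trifunctional enzyme of the early steps, was 104, 72.4 and 97.8 FPKM in HN and 172, 170.0 and 131 FPKM in NN (log2 fold change -0.79 ± 0.20). ATIC and GART also did not overlap between the groups, which for ATIC follows from the choice. PRPS2, which makes the ribose phosphate donor, was 948, 578 and 573 FPKM in HN and 1249, 1359 and 909 FPKM in NN, with HN replicate 1 above NN replicate 3 (log2 fold change -0.76 ± 0.26). XDH, the xanthine dehydrogenase that forms uric acid, was 40.3, 119 and 33.6 FPKM in HN and 67.3, 66.2 and 106 FPKM in NN, with overlapping groups and HN replicate 2 the highest bird. The lower count was 4 under each of the 3 other scalings and 3 without HN replicate 3, NN replicate 1 or NN replicate 2.

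**Figure D4:**
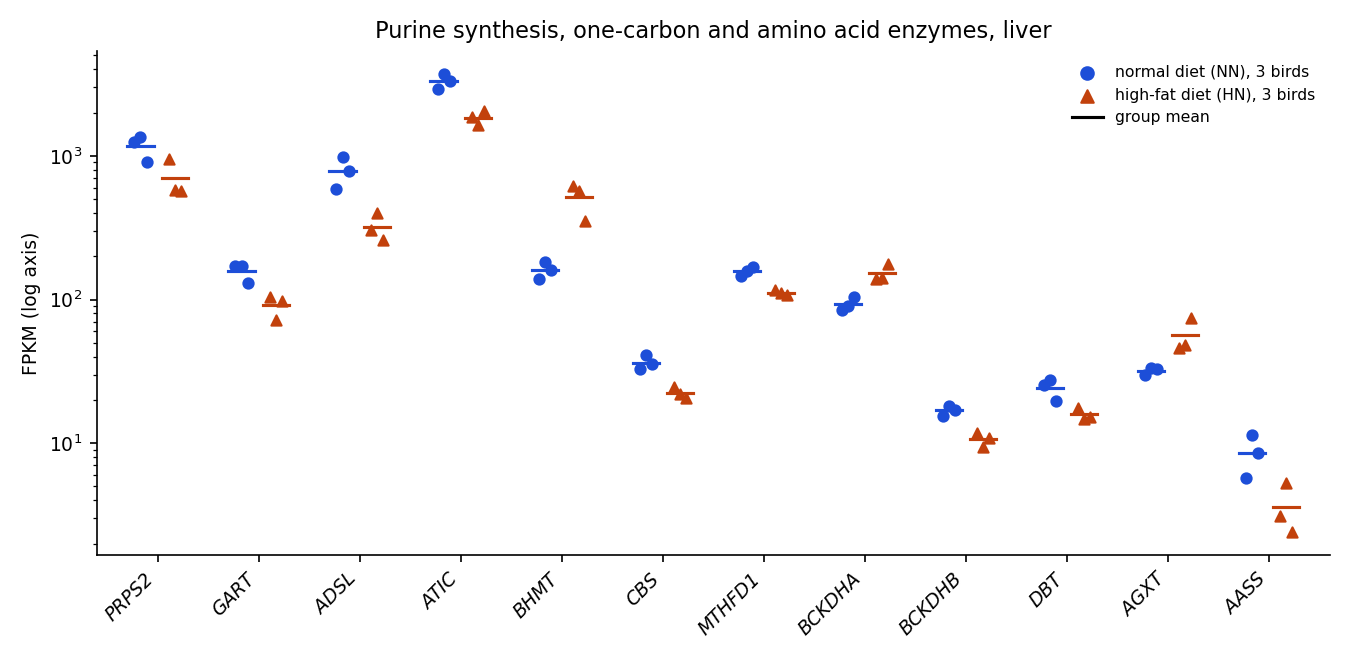
FPKM of each liver (log axis) for enzymes of purine synthesis (PRPS2 to ATIC), of methionine and one-carbon metabolism (BHMT, CBS, MTHFD1) and of amino acid breakdown, with NN birds as circles, HN birds as triangles and group means as lines. BCKDHA lies at 140 to 176 FPKM in HN and 85.2 to 104 FPKM in NN, while BCKDHB and DBT are lower in HN.

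In the list of ER chaperones and the amino acid response, 7 of 34 tested members (20.6%) were nominally higher in HN livers, against 3.42% of all tested genes, and 0 were lower. The other 27 did not pass, and 9 of the 34 had a negative log2 fold change. MANF, a secreted ER stress protein, was 157, 164 and 166 FPKM in HN and 111, 98.3 and 84.4 FPKM in NN. The HN livers agreed closely with each other, and the log2 fold change was 0.73 ± 0.15 (adjusted p = 0.382, limma). HSPA5, the main ER chaperone BiP, was 316, 533 and 159 FPKM in HN and 137, 178 and 116 FPKM in NN, with HN replicate 3 inside the NN range (log2 fold change 1.08 ± 0.43). DNAJB11, a co-chaperone of BiP, had a log2 fold change of 0.45 ± 0.13, and SYVN1, a ubiquitin ligase of ER-associated degradation, one of 0.54 ± 0.18. The disulfide isomerases P4HB (0.57 ± 0.18) and PDIA3 (0.47 ± 0.17) and calreticulin, LOC100859104 in the files (0.44 ± 0.18), were also higher, without overlap. All 7 called members belong to the chaperone and degradation arm, and none to the amino acid response genes of the list, such as ATF4, ASNS and TRIB3. HN replicate 2 had the highest value of 20 of the 34 members. Without HN replicate 2 the median log2 fold change of the list was 0.11. The higher count was 4, beside 1 lower member, without HN replicate 2, 4 without NN replicate 2, 2 without NN replicate 1 and 13 without HN replicate 3, and it was 4 with quantile normalization or equal sums and 9 with median-ratio scaling.

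Among proteasome subunits, 11 of 32 members (34.4%) were nominally higher, against 3.42% of all tested genes, 0 were nominally lower and 21 did not pass. In all, 30 of 32 had a positive log2 fold change, and for 18 of 32 the 3 HN livers lay above the 3 NN livers, against 6.12% of all tested genes. PSMA5, a subunit of the core particle, was 92.3, 113 and 121 FPKM in HN and 61.3, 62.9 and 79.2 FPKM in NN (log2 fold change 0.68 ± 0.17, adjusted p = 0.392). PSMB3, also of the core, was 69.7, 79.01 and 84.9 FPKM in HN and 51.1, 43.5 and 54.6 FPKM in NN (log2 fold change 0.64 ± 0.15). PSMA6 and PSMA7 of the core had log2 fold changes of 0.55 ± 0.14 and 0.50 ± 0.14. No HN liver was within the NN range for these 4 subunits, although each difference was less than 2-fold.

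Subunits of the regulatory particle, which recognizes and unfolds substrates, were also among the 11. PSMD2 was 64.7, 84 and 61.4 FPKM in HN and 40.4, 42.4 and 53.4 FPKM in NN (log2 fold change 0.61 ± 0.18). PSMD3 (0.56 ± 0.17), PSMD11 (0.51 ± 0.15), PSMD13 (0.43 ± 0.13) and the ATPase PSMC5 (0.41 ± 0.14) were also nominally higher, as were the core subunits PSMB4 (0.40 ± 0.15) and PSMB2 (0.37 ± 0.15). The members with negative values were PSME4, a proteasome activator, and PSMD5, an assembly chaperone. HN replicate 2 had the highest value of 17 subunits, HN replicate 3 of 9 and HN replicate 1 of 3. The higher count was 12 without HN replicate 2 and 6 without NN replicate 2, and 1 member was nominally lower without HN replicate 1 or NN replicate 3, and under other scalings it was 6 (quantile), 9 (equal sums) and 19 (median-ratio). Most subunits are expressed at over 20 FPKM, where the median log2 fold change of all genes was also positive, at 0.07 for 20 to 100 FPKM and 0.10 above.

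**Figure D5:**
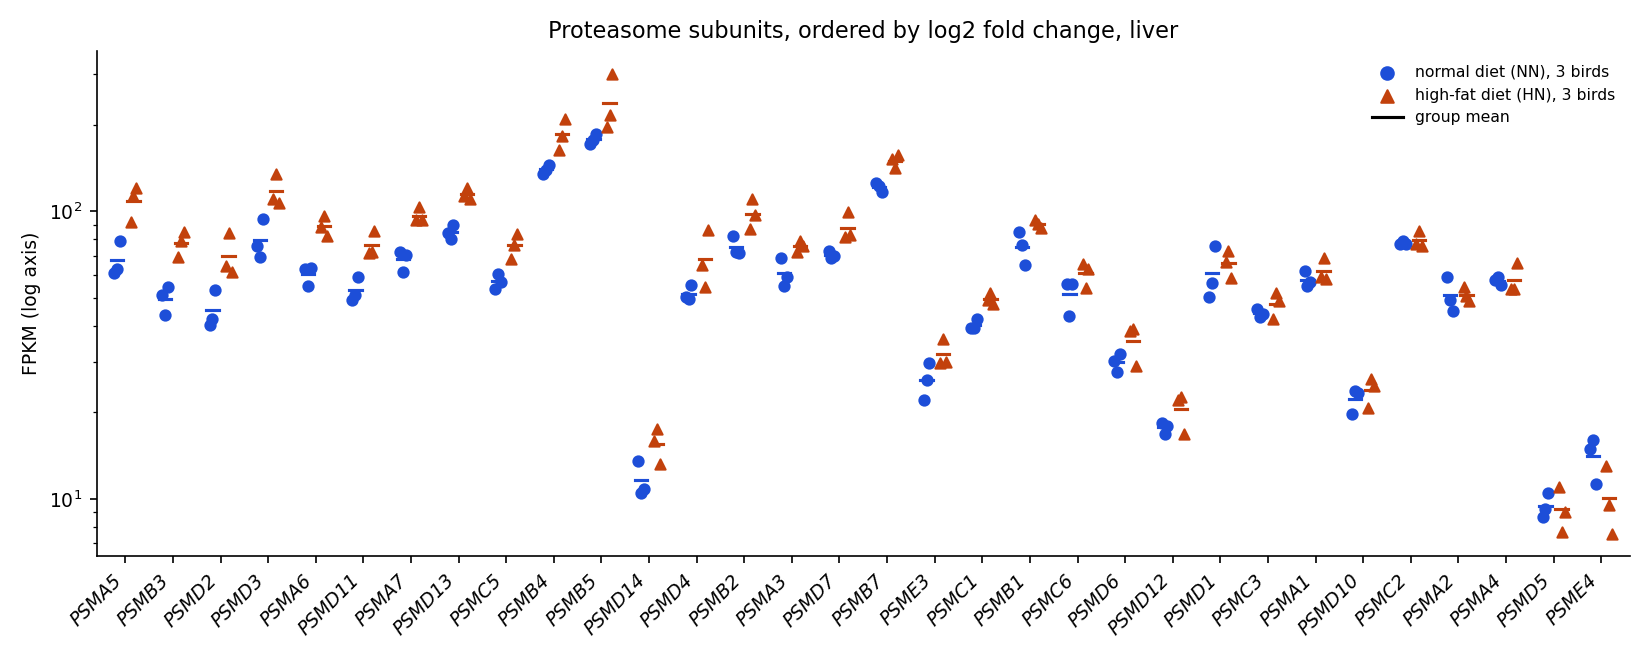
FPKM of each liver (log axis) for 32 proteasome subunits, ordered from the highest to the lowest log2 fold change, with 3 NN birds as circles, 3 HN birds as triangles and group means as lines. HN livers lie above NN livers in 18 subunits, and PSMD5 and PSME4 at the right have a lower HN mean.

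Among the 6 livers, cytosolic heat shock genes were high in HN replicate 2. HSP25, a small heat shock protein of birds named HSPB9 in RefSeq, was 21.6, 2988 and 10.2 FPKM in HN and 80.96, 14.5 and 22.2 FPKM in NN. HSPA2, an HSP70 family member, was 80.7, 1722 and 41.7 FPKM in HN and 160.1, 65.5 and 79.8 FPKM in NN. DNAJB1, an HSP40 co-chaperone, was 21.5, 500.1 and 23.1 FPKM in HN and 19.8, 17.5 and 18.9 FPKM in NN. Only HN replicate 2 was high, by more than 10-fold over every other liver in each of these genes. BAG3 (9.31, 329 and 10.4 FPKM in HN, at most 12.9 FPKM in NN) and DNAJA4 (16.2, 217 and 11.2 FPKM in HN, at most 28.7 FPKM in NN) showed the same pattern, and HSPA8, the constitutive HSC70, was 461, 1171 and 311 FPKM in HN and 425, 341 and 314 FPKM in NN. HN replicate 2 had the highest liver value of 16 of the 30 tested members. The abdominal fat library of HN replicate 2 was high as well. In fat, HSP25 was 164, 4651 and 245 FPKM in HN and 360, 276 and 360 FPKM in NN. DNAJB1 was 43.8, 387 and 39.2 FPKM in HN fats and 61.4, 35.3 and 42.2 FPKM in NN fats. The HN replicate 2 fat had the highest fat value of 17 of the 30 members. Between the diets, 0 members were nominally higher and 1 (3.33%) was nominally lower, FKBP4 (-0.41 ± 0.15), a co-chaperone of steroid receptors. The shares of all tested genes were 3.42% and 8.54%. The log2 fold change of HSP25 was 1.56 ± 2.03 with all livers and -0.96 without HN replicate 2. Leaving out HN replicate 2 gave 1 higher and 0 lower members, HN replicate 1 gave 2 and 2, HN replicate 3 gave 3 and 0, and NN replicate 1 or NN replicate 3 gave 0 and 0.

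Some plasma protein genes, which are among the most abundant of the liver, were nominally higher and some nominally lower. Higher calls were also more frequent among abundant genes in general. Of 770 genes averaging 100 FPKM or more, 69 were nominally higher and 33 nominally lower. Of 38 tested members, 4 (10.5%) were nominally higher and 5 (13.2%) nominally lower, against 3.42% and 8.54% of all tested genes. ALB, serum albumin, was 32466, 19544 and 25944 FPKM in HN and 55672, 53525 and 37626 FPKM in NN. Every HN liver was below every NN liver, with a log2 fold change of -0.92 ± 0.25 (adjusted p = 0.392, limma). SEPP1, named SELENOP1 in RefSeq, the selenium transport protein, was 607, 722 and 716 FPKM in HN and 1126, 1048 and 976 FPKM in NN (log2 fold change -0.62 ± 0.14). KNG1, kininogen, was 472, 384 and 315 FPKM in HN and 692, 561 and 535 FPKM in NN (log2 fold change -0.62 ± 0.20). The serpins SERPINF1 (-0.59 ± 0.19) and SERPIND1 (-0.66 ± 0.26) were also nominally lower.

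The higher plasma proteins included some acute phase proteins. The fibrinogen genes FGA, FGB and FGG, which also encode acute phase proteins, did not pass (log2 fold changes of -0.03, -0.26 and -0.27). HPX, the heme-binding protein hemopexin, was 9412, 12833 and 9905 FPKM in HN and 4069.6, 5289 and 7955 FPKM in NN (log2 fold change 0.93 ± 0.27). ORM1, orosomucoid, was 4566, 7832 and 4211 FPKM in HN and 2867, 2237 and 3311 FPKM in NN (log2 fold change 0.94 ± 0.28). Both were separated between the groups, and HN replicate 2 was the highest bird. With quantile normalization HPX had a log2 fold change of 0.44 and did not pass (unadjusted p = 0.125, limma). The gene that the files call HPS5 and RefSeq names SAA, serum amyloid A, was 68.3, 336 and 163 FPKM in HN and 36.9, 44.2 and 99.5 FPKM in NN, with HN replicate 1 inside the NN range (log2 fold change 1.49 ± 0.62). VTN, vitronectin, had a log2 fold change of 0.34 ± 0.13. HN replicate 2 had the highest value of 17 of the 38 members, and without it 2 were nominally higher and 6 lower. Without HN replicate 3 there were 7 higher and 5 lower, without NN replicate 1 there were 2 and 3, without NN replicate 2 there were 2 and 4, without HN replicate 1 there were 3 and 8, and with quantile normalization 1 and 7.

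Clotting and complement genes had 0 of 36 tested members nominally higher and 4 (11.1%) nominally lower, against 3.42% and 8.54% of all tested genes. The lower share was near that of all genes. VWF, the von Willebrand factor of endothelial cells, was 5.15, 3.4 and 3.64 FPKM in HN and 14.96, 7.21 and 8.05 FPKM in NN (log2 fold change -1.08 ± 0.28, adjusted p = 0.392). PROZ (-0.77 ± 0.30), a vitamin K-dependent clotting protein, CFI (-0.41 ± 0.15), the complement factor I protease, and KNG1 were the other lower members, without overlap of the groups. Of 15 endothelial marker genes, 3 were nominally lower (VWF, TEK and ERG), against 8.54% of all tested genes, and 0 higher. Their summed level was 161 to 232 FPKM in HN and 201 to 283 FPKM in NN, with none at 0. Their part in the result for VWF was not tested, and in whole liver fewer cells of a type and less RNA per cell cannot be told apart. The lower count was 2 with median-ratio scaling or without NN replicate 2 or NN replicate 3, 1 without NN replicate 1, and 7, beside 2 higher members, without HN replicate 1.

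In the list of cytochrome P450 and conjugation enzymes, 5 of 45 tested members (11.1%) were nominally higher and 2 (4.44%) nominally lower. The shares of all tested genes were 3.42% and 8.54%. These shares are not matched for level, and 69 of 770 genes averaging 100 FPKM or more were nominally higher and 33 nominally lower. CYP2C21L, a member of the drug-metabolizing CYP2C family, was 840.0, 628 and 206 FPKM in HN and 124, 77.1 and 29.7 FPKM in NN (log2 fold change 2.84 ± 0.67, adjusted p = 0.392). CYP2C45, named CYP2C18 in RefSeq, was 1868, 423 and 188 FPKM in HN and 180.0, 139 and 56.02 FPKM in NN (log2 fold change 2.23 ± 0.85). In both genes HN replicate 1 was the highest bird and HN replicate 3 the lowest HN liver. HN replicate 3 was just above the NN range for CYP2C45 and farther above it for CYP2C21L. Reads of related CYP2C genes may be shared, which cannot be resolved here. SULT1B (0.90 ± 0.21), a sulfotransferase, GSTZ1 (0.68 ± 0.21), a glutathione transferase of tyrosine breakdown, and GSTO1 (0.72 ± 0.29), named GSTO2 in RefSeq, were higher without overlap. MGST1 (-0.37 ± 0.14) and GSTK1 (-0.39 ± 0.15), both glutathione transferases of membranes or organelles, were lower without overlap. After rescaling to equal sums, 4 members were nominally higher and 5 lower, and with median-ratio scaling 7 and 0. Without NN replicate 1 or NN replicate 3, 0 members were nominally lower, and without NN replicate 2, 1 was.

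Circadian clock genes had 2 of 20 tested members (10%) nominally higher and 3 (15%) nominally lower, against 3.42% and 8.54% of all tested genes. In all, 16 of 20 had a negative log2 fold change, and the median of all tested genes was also negative (-0.06). The list median was -0.15 for the 13 members tested at a mean of 5 FPKM or more and -0.12 with quantile normalization. BHLHE41 and BHLHE40 encode repressors of the clock (DEC2 and DEC1). BHLHE41 was 12.4, 8.74 and 6.64 FPKM in HN and 3.25, 2.98 and 2.37 FPKM in NN (log2 fold change 1.38 ± 0.23, adjusted p = 0.313). Its lack of overlap follows from how it was chosen. BHLHE40 was 18.98, 48.1 and 11.6 FPKM in HN and 6.04, 10.5 and 10.4 FPKM in NN, with HN replicate 2 the highest by far (log2 fold change 1.25 ± 0.49). The cryptochrome genes CRY1 and CRY2, which repress CLOCK and its partner, were lower. CRY1 was 18.96, 17.1 and 16.6 FPKM in HN and 31.2, 27.9 and 25.1 FPKM in NN (log2 fold change -0.64 ± 0.14), and CRY2 had a log2 fold change of -0.54 ± 0.20. PER3 was at 1.2 to 1.23 FPKM in HN and 1.83 to 2.46 FPKM in NN, levels that may rest on few reads (-0.48 ± 0.15). Without NN replicate 2, 1 member was nominally higher and 1 lower, and the higher count was 1 without HN replicate 1, HN replicate 2, NN replicate 1 or NN replicate 3. The time of slaughter of each bird is not given in the sources used here.

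Genes of IGF, JAK-STAT and insulin signalling had 6 of 50 tested members (12%) nominally lower, against 8.54% of all tested genes. Only 1 member (2%) was nominally higher, against 3.42%, so neither share was far from that of all genes. With a minimum mean of 5 FPKM, 3 of 35 members were nominally lower and 0 higher. SOCS2, a feedback inhibitor of growth hormone signalling, was 9.68, 14.2 and 26.8 FPKM in HN and 27.6, 35.8 and 33.01 FPKM in NN. HN replicate 3 was just below the NN range and the other HN livers were farther below it, with a log2 fold change of -0.996 ± 0.34 (adjusted p = 0.399, limma). JAK2, a kinase of growth hormone and cytokine receptors, was 3.23, 2.11 and 2.5 FPKM in HN and 4.21, 3.52 and 4.85 FPKM in NN (log2 fold change -0.53 ± 0.18). IGFBP3, a binding protein of IGF1, was 1.93, 2.16 and 2.24 FPKM in HN and 4.75, 3.75 and 3.91 FPKM in NN (log2 fold change -0.72 ± 0.15). Neither gene overlapped, but both were below 5 FPKM. GRB10 (-0.64 ± 0.21), an adaptor that inhibits the insulin receptor, PTPN1 (-0.47 ± 0.19), a phosphatase of that receptor, and TSC1 (-0.40 ± 0.16) were also lower. IGFALS (0.41 ± 0.17), the acid-labile subunit that stabilizes circulating IGF1, was higher. IGF1 itself was 11.8, 6.94 and 9.58 FPKM in HN and 11.7, 11.5 and 12.03 FPKM in NN, with overlapping groups (adjusted p = 0.536). The lower count was 4 with median-ratio scaling or quantile normalization, 2 without HN replicate 2, 2 without NN replicate 1 and 3 without NN replicate 3, and the higher count was 0 without HN replicate 1, NN replicate 1 or NN replicate 2.

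Interferon-stimulated genes varied more between birds than between diets. Of 38 tested members, 3 (7.89%) were nominally higher, against 3.42% of all tested genes, and 0 lower. The median log2 fold change of the list was 0.15, against an SD between birds of the same diet of 0.52 for the median of the list. IFI27L2, induced by interferon in mammals, was 182, 396 and 753 FPKM in HN and 43.4, 66.9 and 156 FPKM in NN (log2 fold change 2.29 ± 0.62, adjusted p = 0.392). The guanylate-binding protein genes GBP (1.31 ± 0.45) and LOC415922, named GBP4L in RefSeq (0.80 ± 0.28), were also higher without overlap. BF1, a major histocompatibility class I gene, was 712, 1314 and 2056 FPKM in HN and 363, 559.9 and 968 FPKM in NN, with overlapping groups. HN replicate 1 had the lowest value of 22 of the 38 members and NN replicate 1 of 11, while HN replicate 3 had the highest value of 24. OASL, an antiviral sensor, was 5.9, 113 and 151 FPKM in HN and 13.5, 64.4 and 64.3 FPKM in NN. Summed levels of 13 macrophage markers were also lowest in HN replicate 1 (657 FPKM) and NN replicate 1 (703 FPKM), against 1093 to 2380 FPKM in the other 4 livers, with 0 of 13 nominally different and none at 0, and their part in this pattern was not tested. Without HN replicate 1, 15 members were nominally higher, and without NN replicate 1, 1 was. The count was 2 without HN replicate 3 or NN replicate 2, and 5 without NN replicate 3 or with median-ratio scaling.

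Among thyroid hormone genes and liver transcription factors, 2 of 47 members (4.26%) were nominally higher and 9 (19.1%) nominally lower. The shares of all tested genes were 3.42% and 8.54%. DIO2, the deiodinase that activates thyroid hormone, was 23.8, 28.2 and 10.5 FPKM in HN and 5.02, 0.54 and 0.65 FPKM in NN. All HN livers were above 10 FPKM and NN replicates 2 and 3 were below 1 FPKM, with a log2 fold change of 3.03 ± 0.60 (adjusted p = 0.382, limma). MYC was 11.7, 47.9 and 18.7 FPKM in HN and 9.2, 8.51 and 5.09 FPKM in NN, with HN replicate 2 the highest (log2 fold change 1.46 ± 0.49). KLF15, a factor that promotes gluconeogenesis and amino acid breakdown in mammals, was 7.27, 6.13 and 9.02 FPKM in HN and 12, 19.6 and 15.9 FPKM in NN, without overlap (log2 fold change -0.98 ± 0.22). NR2F1 (-0.68 ± 0.21), NR5A2 (-0.37 ± 0.13), which regulates bile acid and cholesterol genes, CEBPG (-0.48 ± 0.18), PROX1 (-0.41 ± 0.16), RXRG (-0.38 ± 0.15), a partner of PPARA and FXR, and HNF4G (-0.62 ± 0.23) were also lower, beside PPARA and NR1H4. The lower count was 3 with median-ratio scaling, 12 after rescaling to equal sums, 4 without HN replicate 2, 1 without NN replicate 1, 3 without NN replicate 2 and 5 without NN replicate 3.

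Large families of housekeeping genes showed few differences, while 3.42% of all tested genes were nominally higher and 8.54% nominally lower. Of 64 respiratory chain and ATP synthase subunits, 0 were nominally higher and 1 was lower, ATP5S (-0.42 ± 0.16), a factor named for ATP synthase. Of 70 mitochondrial ribosomal proteins, 0 were higher and 1 was lower, MRPL15 (-0.34 ± 0.14), and of 74 tested cytosolic ribosomal proteins 0 were higher and 0 lower. Median-ratio scaling gave 10, 12 and 9 higher members in these 3 families and 0 lower. Without HN replicate 2, 4 respiratory subunits and 2 mitochondrial ribosomal proteins were nominally higher, and without HN replicate 1, 0 and 3. HN replicate 3 had the highest value of 47, 50 and 43 of the members, and HN replicate 2 the lowest of 35, 26 and 36. Among 35 tested mitochondrial carriers, SLC25A5 (0.79 ± 0.28), an ADP/ATP carrier, was nominally higher at 261, 429 and 199.9 FPKM in HN and 144, 163 and 183 FPKM in NN. SLC25A12 (-0.65 ± 0.15), an aspartate/glutamate carrier at 1.57 to 3.83 FPKM, was lower. Both were separated between the groups. Without HN replicate 1, HN replicate 2 or HN replicate 3, the carriers had 1 higher and 3 lower, 2 higher and 3 lower, and 1 higher and 2 lower members, and 0 were higher without NN replicate 1 or NN replicate 2.

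Several genes outside these lists were among the 15 lower genes named for their p-values. These had the smallest p-values of the lower genes that averaged 5 FPKM or more, had no overlap and had a symbol other than a LOC number. GAB2, a scaffold of receptor tyrosine kinase signalling, was 2.84, 2.68 and 4.31 FPKM in HN and 12.9, 9.09 and 13.9 FPKM in NN (log2 fold change -1.60 ± 0.22, adjusted p = 0.266, limma). EGFR, the epidermal growth factor receptor, was 14.6, 11.7 and 12.1 FPKM in HN and 22.1, 20.8 and 20.3 FPKM in NN (log2 fold change -0.69 ± 0.14). PIKFYVE, the lipid kinase of endosomes, was 4.03, 2.53 and 3.33 FPKM in HN and 9.63, 7.75 and 8.6 FPKM in NN (log2 fold change -1.18 ± 0.18). The lack of overlap in these genes follows from how they were chosen. NMRK1, a kinase of nicotinamide riboside in NAD synthesis, was 17.8, 21.7 and 15.9 FPKM in HN and 36.99, 31.7 and 42.5 FPKM in NN (log2 fold change -0.97 ± 0.18). NIM1K, a protein kinase, was 4.4, 7.7 and 3.9 FPKM in HN and 21.3, 23.5 and 11.98 FPKM in NN (log2 fold change -1.65 ± 0.32). ACBD7, an acyl-CoA-binding protein, was 1.13, 2.27 and 5.99 FPKM in HN and 12.3, 16.9 and 12.4 FPKM in NN (log2 fold change -2.01 ± 0.42). The HN livers differed among themselves for the last gene but stayed below the NN livers. PCMTD1 (-0.99 ± 0.17), PCF11 (-0.88 ± 0.16), a factor of transcript cleavage, ANKRD10 (-0.78 ± 0.16), DNAJC18 (-0.77 ± 0.13) and KDM3A (-0.64 ± 0.13), a histone demethylase, completed these lower genes.

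Of the 15 higher genes chosen in the same way, FDPS, SC5D, LSS, IDI1 and HSD17B7 are enzymes of sterol synthesis and SREBF2 is their regulator. FDPS was 73.2, 84.1 and 63.4 FPKM in HN and 22.9, 25.9 and 28.5 FPKM in NN (log2 fold change 1.47 ± 0.16), and SREBF2 was 52.5, 86.1 and 44.6 FPKM in HN and 16.4, 21.01 and 21.4 FPKM in NN (log2 fold change 1.54 ± 0.26). Separation of the groups was a condition for naming these genes. USP5, a deubiquitinase that disassembles free ubiquitin chains, was 21.9, 20.4 and 21.6 FPKM in HN and 12.3, 11.4 and 12.6 FPKM in NN, with little spread within each diet (log2 fold change 0.76 ± 0.12, adjusted p = 0.313). CHIR-IG1-5, an immunoglobulin-like receptor gene of chicken, was 27.2, 36.3 and 38.6 FPKM in HN and 9.59, 17.4 and 12.6 FPKM in NN (log2 fold change 1.33 ± 0.24). Most of the rest of these genes are given above with their lists.

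When all 12 libraries were fitted together, with 1 variance per gene shared by liver and fat, 33 genes (0.293%) had an adjusted p-value under 0.05 for the diet in liver, 21 higher and 12 lower in HN. All 33 separated the HN and NN livers, and 10 have only a LOC symbol in the files. Among the genes not yet named were THEM4 (37.7, 34.3 and 45.6 FPKM in HN and 23.97, 23.2 and 22.1 FPKM in NN), a thioesterase, HTATIP2 (1.28 ± 0.27), PIGC (0.90 ± 0.17), an enzyme of GPI anchor synthesis, TMEM53 (0.82 ± 0.18), DHCR7 (1.31 ± 0.19) of sterol synthesis and NBEAL1 (-1.12 ± 0.18). The largest negative fold change among them was that of LOC107054791, at 0.85, 0.87 and 1.03 FPKM in HN and 10.02, 6.68 and 4.32 FPKM in NN. This fit assumes that a gene varies between birds in fat as it does in liver, and none of the 33 genes passed in the fit of the livers alone. The assumption does not hold for called genes that are nearly absent from fat, such as SLC2A2 (0.07 to 0.13 FPKM) and NIM1K (0 to 0.22 FPKM). Their small spread in fat lowers the shared variance and the p-value. The fit also treats the libraries as independent. Liver and fat with the same diet and number deviated together in all 6 pairs (correlations of 0.12 to 0.42). With such pairs fitted as 1 bird, 34 genes (0.301%) passed, the 33 and APOF (adjusted p = 0.0475, against 0.0699 without the bird term).

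Some markers of other liver cells were nominally different. Among 11 tested stellate cell and fibroblast markers, 3 were nominally higher (COL1A1, DES and ACTA2), against 3.42% of all tested genes, and 0 lower. The log2 fold changes of COL1A2 (0.32), COL3A1 (0.28) and THY1 (0.45) were positive and did not pass. Those of DCN (-0.19), LUM (-0.17), LRAT (-0.19), RGS5 (-0.25) and PDGFRB (-0.09) were negative. The summed level of these markers overlapped, at 304 to 316 FPKM in HN and 255 to 321 FPKM in NN, with none at 0. ACTA2, the smooth muscle actin, was 17.4, 29.9 and 16.8 FPKM in HN and 11.2, 12.2 and 11.9 FPKM in NN. DES, desmin, was 16.6, 23.3 and 21.2 FPKM in HN and 13.2, 10.03 and 10.9 FPKM in NN. Neither marker overlapped between the groups. Of 17 tested lymphocyte markers, 2 were nominally lower (PTPRC and LCK) and 0 higher, a lower share near the 8.54% of all tested genes. The log2 fold changes of CD28 (0.61), IGJ (0.33), BTK (0.04) and CD6 (0.02) were positive, and those of the other tested lymphocyte markers were negative. The sums of the lymphocyte markers overlapped, at 38.2 to 124 FPKM in HN and 74.4 to 166 FPKM in NN. PTPRC, the leukocyte antigen CD45, was 2.35, 4.99 and 5.66 FPKM in HN and 6.61, 7.89 and 10.4 FPKM in NN. Their part in the other results was not tested.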

How the data were processed

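RNA of 6 livers and 6 abdominal fats was sequenced by the authors on the BGISEQ-500 platform. The authors deposited FPKM per gene and library, already divided by transcript length and library size. The submitters' processing notes name HISAT2 2.0.4, Bowtie2 2.2.5 and RSEM 1.2.12. The genome build is not given in the sources used here, so no coordinates are given. Of 18332 gene IDs, 15244 matched the RefSeq table of GRCg7b, which was used for names only. A total of 60 gene IDs repeated the symbol of another gene ID, and the gene with the highest mean was then used. No sequences were available, so a search of promoters for motifs was not run.

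The HN livers were set against the NN livers with limma 3.58.1 in R 4.3.3 (lmFit, eBayes with a trend) on log2(FPKM + 1), for genes averaging 1 FPKM or more. Tests were two-sided, with adjustment by Benjamini-Hochberg, and an exact permutation test was added for each named gene. The design had no covariates, and no batch is labelled. Replicates are separate samples by their labels, 1 per bird, and p-values measure the spread between them. Read depth is not given, and single reads could not be resolved from FPKM with 2 decimals. Alternatives were a pseudocount of 0.1, no filter, a minimum mean of 5 FPKM, rescaling to equal sums, median-ratio scaling, quantile normalization, a replicate block, all 12 libraries, array weights, no trend and leaving out each bird. Leaving out HN replicate 2 with median-ratio scaling, and a bird term for liver and fat of the same diet and number in the fit of all 12 libraries (duplicateCorrelation, consensus correlation 0.195), were added after seeing the data. The labels do not say that same-numbered livers and fats came from 1 bird. Deviations from the group means correlated by 0.12 to 0.42 in the 6 same-numbered pairs and by -0.41 to 0.21 in the other pairs of a diet, and the HN replicate 3 liver correlated best with the HN replicate 1 fat (0.21, against 0.12). The scripts were tested on simulated data. Python 3.11.15, numpy 2.4.6, pandas 2.3.3 and matplotlib 3.10.9 were used.

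Named genes are the 15 higher and 15 lower genes with the smallest p-values among those averaging 5 FPKM or more, with no overlap and a symbol other than a LOC number, up to 4 members per list with the smallest p-values and its defining steps, and genes with an adjusted p-value under 0.05 in the fit of all 12 libraries. For the genes named as the 15 higher and 15 lower, lack of overlap follows from the choice. Other members past the unadjusted threshold and the heat shock, marker and interferon genes with no call were named after their values were seen. The comparison, lists and members were chosen with earlier results of these data known. Some members of the lists are counted but not reported by name here.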

Additional observations from a re-analysis of the deposited data

Results flagged for a closer look

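For 5 of the genes named in this report, the HN and NN livers were separated in one direction and the HN and NN fats in the other. Many named genes were chosen for separation in liver. Over all tested genes, 6.12% had all HN livers above all NN livers and 15% below. The share of all tested genes with opposite separation in fat is not given here. THRSPB had a log2 fold change of 2.61 in liver and -0.76 in fat (adjusted p of the diet by tissue interaction = 0.118, limma). LOC101748650 had values of 2.50 in liver and -0.69 in fat (interaction adjusted p = 0.118). TMEM53 had values of 0.82 in liver and -0.13 in fat (interaction adjusted p = 0.474), and THEM4 values of 0.73 and -0.12 (interaction adjusted p = 0.346). SLC25A17, a peroxisomal carrier, had values of -0.30 in liver and 0.21 in fat (interaction adjusted p = 0.998). In this fit of independent libraries the difference between the tissues did not pass the adjusted threshold for any of the 5 genes. With liver and fat of the same number fitted as 1 bird, it passed for THRSPB and LOC101748650 (adjusted p = 0.0434 for both). It did not pass for THEM4 (0.164), TMEM53 (0.229) or SLC25A17 (0.623). With a pseudocount of 0.1, median-ratio scaling or quantile normalization, 0 genes passed. With 3 birds per group, no group was large enough to be searched for single outlying birds.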

How the results depend on the processing

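The number of genes with an adjusted p-value under 0.05 between HN and NN livers was 0 under every alternative except the fit of all 12 libraries, which gave 33, and 34 with liver and fat of the same number as 1 bird. Of the nominal counts, the higher one (386) moved to 800 with median-ratio scaling, and to 818 when HN replicate 2 was also left out. The lower one (963) moved to 575 and 400 under these settings, to 1600 after rescaling to equal sums and to 468 for genes averaging 5 FPKM or more. With each bird left out in turn, 216 to 650 genes were nominally higher and 347 to 1136 nominally lower. The cause of these shifts was not tested. Genes with an adjusted p-value under 0.05 for the diet by tissue interaction numbered 0 (limma). At an unadjusted p-value under 0.05, 257 genes were more positive and 313 more negative in liver than in fat. The adjusted count was also 0 with a pseudocount of 0.1, median-ratio scaling or quantile normalization. It was 3 with the replicate block (THRSPB, LOC101748650 and APOF) and 2 with the bird term. The bird term was added after seeing the data, and the labels do not state its pairing. The labels do not say whether HN and NN livers of the same number belong together. Deviations of same-numbered HN and NN livers had correlations of 0.40, 0.09 and -0.04, and HN replicates 2 and 3 correlated best with another number. With 3 birds per group these correlations cannot decide whether the numbers pair the birds. With the replicate block, 496 genes were nominally higher, 929 lower and 0 passed the adjusted threshold (smallest adjusted p = 0.0808, limma).

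Of 144 named genes, 4 changed sign. Most of the 144 were named for small p-values or lack of overlap, so few sign changes follow from the choice. MLXIPL (0.03) was -0.062 with equal sums, -0.10 with quantile normalization and -0.14 to 0.30 with each bird left out, negative without HN replicate 1, HN replicate 3 or NN replicate 3. LOC100857298 (0.06) was -0.030 with equal sums, -0.015 with quantile normalization and -0.24 to 0.46 with each bird left out, negative without HN replicate 1, HN replicate 3, NN replicate 2 or NN replicate 3. ELOVL6 ranged from -0.038 (without HN replicate 1) to 0.58. HSP25 ranged from -0.96 (without HN replicate 2) to 3.07, and was -0.89 when median-ratio scaling was used without HN replicate 2. List medians moved by more than the SD between birds in 61 of 414 comparisons. Differences of genes with few FPKM are limited by a read depth that is unknown here.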
